A study of Mus musculus with 8 samples.

Results

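Txnip and the alpha-arrestins Arrdc1, Arrdc2, Arrdc3 and Arrdc4 were examined for m6A (N6-methyladenosine), a methylated form of adenosine found within mRNA. The members were the peaks whose gene name in the 4 deposited peak lists was that of 1 of these 5 genes. The lists held 14 such peaks out of 38705. They belonged to 3 of the 5 genes, Txnip, Arrdc3 and Arrdc4, out of 9778 genes with a peak in any library. Overlapping peaks of different libraries were merged, which gave 6 member regions out of 21168.

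The peaks came from m6A immunoprecipitation and sequencing (MeRIP-seq) of mouse embryonic fibroblasts (MEFs), primary cells isolated from embryos at day 13.5 and used after 5 to 6 passages. All cells were wild type C57BL/6, cultured in high glucose DMEM with serum. Control MEFs were untreated and starved MEFs were kept for 2 h in nutrient-deprived medium, and the study asked which mRNAs change in m6A under that treatment. Each condition had 2 replicates, each with a library immunoprecipitated with an m6A antibody (IP) and an input library without antibody, giving 8 samples in 4 groups. Peak lists were used for the 4 IP libraries.

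Alpha-arrestins are adaptor proteins. Through PPxY motifs they bind ubiquitin ligases of the NEDD4 family, and through their arrestin fold they bind membrane proteins, which brings ligase and cargo together. Txnip binds thioredoxin and restrains glucose uptake, and transcription of Txnip and of its close relative Arrdc4 is driven by the glucose-sensing factors MondoA (gene Mlxip) and Mlx. Arrdc3 is an adaptor for the beta2-adrenergic receptor and for integrin beta 4, Arrdc1 takes part in the budding of vesicles with Tsg101, and Arrdc2 is a less studied relative. In mRNA, m6A is placed mostly at adenosines in a context of which GGAC is a common form, and it is known to be concentrated near stop codons and in 3′ UTRs.

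The sequences below show the GGAC matches inside the Txnip region, the first Arrdc3 region and the proximal and distal Arrdc4 regions, on which the results turn. Each is 30 bases of the transcribed strand, read from GRCm38 (mm10) and written 5′ to 3′, with GGAC in capitals. The number after the gene name is the distance of the match from the last base of the stop codon, in nt of transcript.

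Txnip 347 (chr3:96560863-96560892, plus strand): ttttgttttaaagGGACttttaaattgtct
Txnip 397 (chr3:96560913-96560942, plus strand): tctgtgccatgggGGACagagccaatttca
Arrdc3 59 (chr13:80893472-80893501, plus strand): ctcttccagctgaGGACagagaagtatctt
Arrdc3 561 (chr13:80893974-80894003, plus strand): gttaatgtagcctGGACtctacctgcatat
Arrdc4 296 (chr7:68739165-68739194, minus strand): cagaggcgtcttaGGACctgggatgttact
Arrdc4 366 (chr7:68739095-68739124, minus strand): gttgtgaacttatGGACttggtaggaagac
Arrdc4 758 (chr7:68738703-68738732, minus strand): ggaggagtaggcgGGACatctttgggatac
Arrdc4 1896 (chr7:68737565-68737594, minus strand): aacagtacggagtGGACagagagaaaatgg

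All 8 windows were in the 3′ UTR. Both Txnip matches lay in every Txnip peak, and the Arrdc4 match at 1896 nt lay in an Arrdc4 peak of every library. The Arrdc4 matches at 296 and 366 nt lay in a peak of 3 libraries, all but control IP 2, and that at 758 nt in starved IP 2 only. The Arrdc3 matches were covered in starved IP 1 only. The longer string GGACAGAG, which was picked out after the windows had been read, was the longest string opening with GGAC that the member regions of 3 genes shared. It stood at 397 nt in Txnip, at 59 nt in Arrdc3 and at 1896 nt in Arrdc4. Of 16866 merged regions of all genes that could be placed on a transcript, 466 (2.76%) held it. Among merged regions of like length the share was 7.49% for the Txnip region, 2.79% for the first Arrdc3 region and 4.03% for the last Arrdc4 region. The string was chosen for being shared, so these shares do not measure how often some such string would be shared. A match is a description of the sequence and does not locate a methylated base.

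The lists held 10103 peaks in control IP 1, 9871 in control IP 2, 9757 in starved IP 1 and 8974 in starved IP 2. Every peak has a fold enrichment, the ratio of IP to local input signal, and a score, which is minus 10 times the log10 of the peak caller's p-value. The median fold enrichment was 12.21 and 12.27 for control and 14.58 and 14.69 for starved IP, and scores in the lists began between 50.01 and 50.11. Depth was unknown, since the files hold no reads, so a missing peak was not read as missing m6A. More RNA of a gene and more m6A per RNA cannot be told apart from the presence of a peak. As a check of the label, 8 of 10 fibroblast marker genes had a peak in a library, Pdgfra, Pdgfrb and Twist1 in all 4, while the defining markers Col1a1 and Vim had none. Peaks were also on 2 of 4 epithelial, 2 of 4 endothelial, 1 of 3 blood and 3 of 3 neural marker genes, so that peaks, which are not expression levels, did not by themselves identify the cells.

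Peaks of the 5 genes were more numerous in the starved libraries. Control IP 1 had 3 and control IP 2 had 2, against 5 in starved IP 1 and 4 in starved IP 2, while the whole lists were shorter in the starved libraries. These peaks covered 1529 and 557 bp in the control libraries and 2782 and 3043 bp in the starved ones. The whole lists covered 4754336, 4431446, 4928497 and 4253676 bp in the same order. Both starved counts were above both control counts, but with only peaks of a deposited false discovery rate under 20% the counts were 2 and 2 against 3 and 2, which overlap, and the mean difference of 2.0 peaks per library became 0.5. A single gene, Arrdc4, gave 9 of the 14 peaks, with 3 from Txnip and 2 from Arrdc3. Arrdc4 had 2 and 2 peaks in the control and 3 and 2 in the starved libraries. Arrdc3 had 0 and 0 against 1 and 1, and Txnip 1 and 0 against 1 and 1.

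All 14 peaks had their centre in the 3′ UTR, more than 100 nt past the stop codon. Over all genes, 38.2%, 36.5%, 35.9% and 37.3% of placed peaks had such a centre in control IP 1, control IP 2, starved IP 1 and starved IP 2. The coding sequence held 45.1% to 47.7% of the placed peaks of a list and none of the member peaks' centres. The annotated 3′ UTRs of the 5 genes differ in length, with 254 nt in Arrdc1, 812 in Arrdc2, 1354 in Txnip, 2482 in Arrdc4 and 2616 in Arrdc3. The 3 genes with a peak were those with the longest 3′ UTRs.

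**Figure D1:**
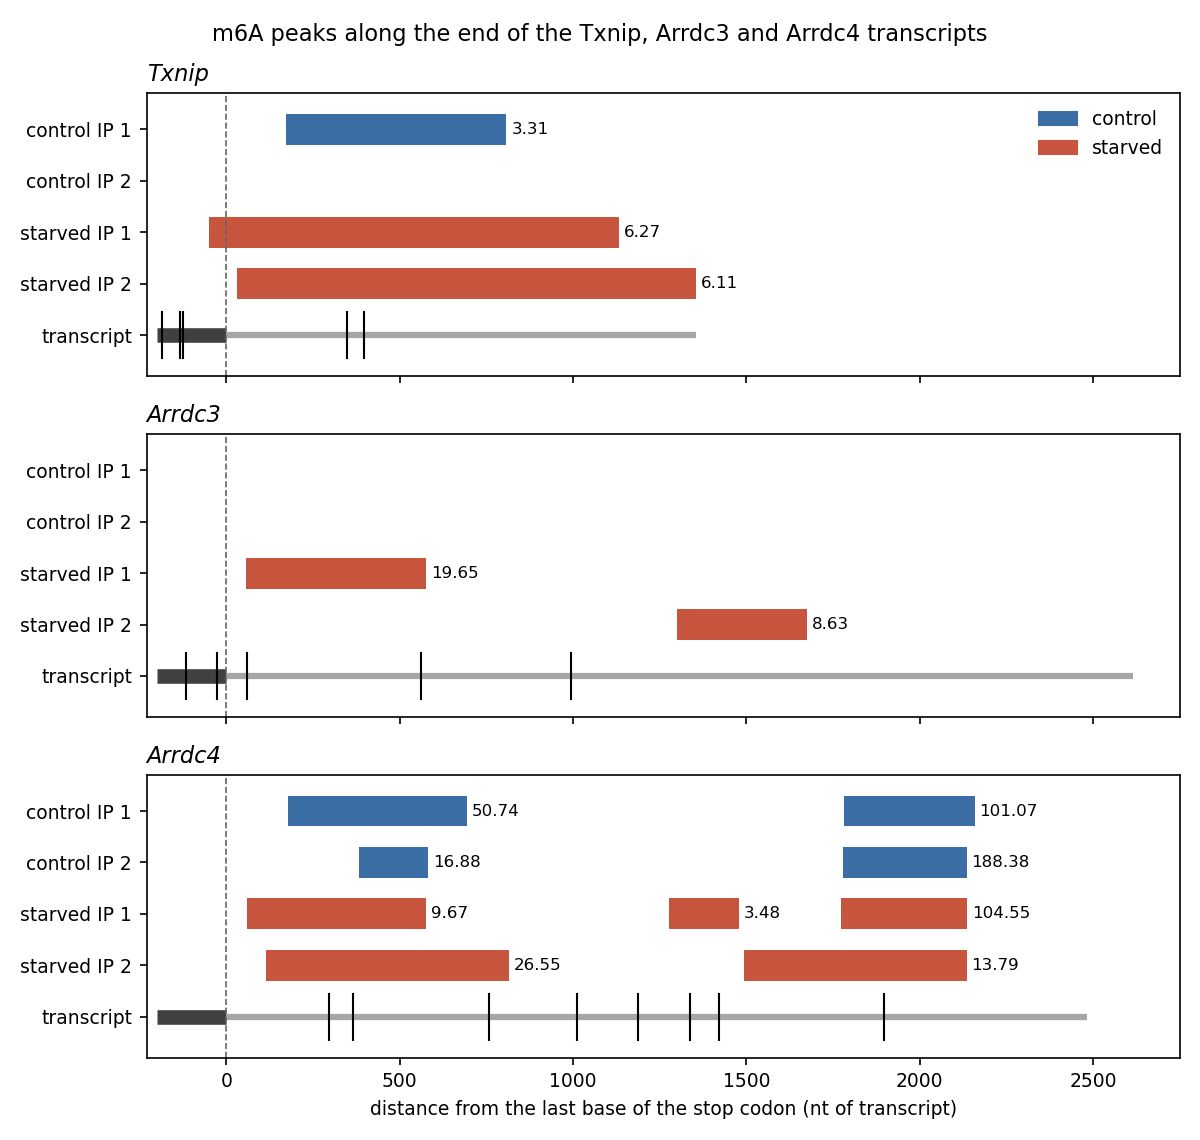
Each bar is a peak in 1 IP library (blue, control; red, starved), placed by distance from the last base of the stop codon in nt of transcript, with its fold enrichment at the right end; on the transcript line the thick part is coding sequence, the thin part 3′ UTR and the ticks are GGAC matches. The Txnip peak was absent from control IP 2 and was longest in the starved libraries, the 2 Arrdc3 peaks did not overlap, and Arrdc4 had a proximal and a distal region in all 4 libraries.

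Txnip lies at chr3:96557957-96561883 on the plus strand. It had 1 merged region, at chr3:96560479-96561883, that reached from 50 nt before the last base of the stop codon to the last base of the annotated transcript at 1354 nt. In control IP 1 the peak had a fold enrichment of 3.31, a score of 93.09 and a length of 636 bp. Control IP 2 had no peak. In starved IP 1 the peak had a fold enrichment of 6.27, a score of 604.74 and a length of 1184 bp. In starved IP 2 these values were 6.11, 475.59 and 1324 bp. The 2 starved peaks were thus close to each other and above the only control peak by each of these measures.

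The fold enrichments of the starved Txnip peaks were 1.89 and 1.85 times that in control IP 1, and the lengths 1.86 and 2.08 times. On the log2 scale the starved mean exceeded control IP 1 by 0.90, with an SD of 0.03 between the starved libraries. With 1 control value there was no test. The difference was 0.64 after the median of each library's list was taken off. All 3 peaks shared 636 bp, which was the whole control peak, and the starved peaks shared 1103 bp. The starved IP 1 peak began within the last codons and spanned the stop codon, while the control peak began 172 nt after it. The starved IP 2 peak ended where the annotated transcript ends. From 5.81% to 6.48% of the peaks of a list had an end there.

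In each list the Txnip peak was weak but long. Its fold enrichment was at the 3.64 percentile in control IP 1, the 18.6 percentile in starved IP 1 and the 19.0 percentile in starved IP 2, and its length at the 81.2, 94.7 and 97.0 percentiles. The deposited false discovery rate was 66.22% in control IP 1, 21.03% in starved IP 1 and 24.81% in starved IP 2. Of 1220 merged regions with a peak in both starved libraries and 1 control library, 41.6% had both starved fold enrichments above the control one, as Txnip had. The presence of Txnip in control rested on that weak peak. With a score of at least 100, a fold enrichment of at least 4 or lists of equal number, the control peak was lost, and Txnip was then called in the starved libraries alone. With a false discovery rate under 20% it had no peak in any library.

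The Txnip region held 2 GGAC matches, 1 of them GGACT, in 1405 nt, whereas the median of merged regions of like length was 6.0. GGAC was present in 98.9% of those regions. The remaining 9 GGAC matches of the Txnip transcript were in the coding sequence and lay in no peak.

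Arrdc3 lies at chr13:80883410-80896042 on the plus strand. It was without a peak in both control libraries and had 1 peak in each starved library, at different places. In starved IP 1 the peak was at chr13:80893483-80894001, from 57 to 575 nt after the stop codon, with a fold enrichment of 19.65, a score of 1465.79 and a false discovery rate of 14.46%. In starved IP 2 it was at chr13:80894726-80895101, from 1300 to 1675 nt, with a fold enrichment of 8.63, a score of 332.08 and a rate of 30.84%. A stretch of 724 nt separated the 2 peaks, so no base of Arrdc3 was called in both starved libraries.

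The first Arrdc3 peak was above the middle of its list, at the 60.5 percentile of fold enrichment, and the second below it, at the 30.8 percentile. The first region held 2 GGAC matches, equal to the median of regions of like length, and 1 was GGACT. The second region held none, whereas 76.0% of regions of like length held at least 1. The third GGAC match in the 3′ UTR of Arrdc3 lay between the 2 peaks, at 994 nt.

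By gene, 1 of the 3 members with a peak (Arrdc3) was called in the starved pair of libraries but not in the control pair, and 0 showed the reverse. Over all 9778 genes with a peak, 3.19% had the first pattern and 4.56% the reverse. By merged region, 0 of 6 member regions had either pattern, beside 3.2% and 4.15% of all merged regions. The Arrdc3 count by gene therefore joined peaks that do not overlap. It was 0 with a false discovery rate under 20%, where the second Arrdc3 peak was lost. A peak in 1 library only was common, at 56.2% of merged regions and 3 of the 6 member regions.

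Arrdc4 lies at chr7:68736995-68749241 on the minus strand. It was the only member with peaks in all 4 libraries, as were 2856 (29.2%) of the genes with a peak. Its peaks formed a proximal region at chr7:68738663-68739417, 60 to 814 nt after the stop codon, a distal region at chr7:68737320-68737985, 1492 to 2157 nt after it, and a short region between them. The proximal and distal regions lay 677 nt apart.

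The proximal Arrdc4 peak had a fold enrichment of 50.74 in control IP 1, 16.88 in control IP 2, 9.67 in starved IP 1 and 26.55 in starved IP 2. The highest and the second lowest values were both control values, so the groups overlapped. The mean log2 fold enrichment was 4.87 ± 1.12 (SD, n = 2) in control and 4.0 ± 1.03 (SD, n = 2) in starved libraries, a difference of −0.87 (two-sided exact permutation test, p = 0.667, Benjamini-Hochberg adjusted 0.667 over the 2 regions tested). The smallest p that 2 libraries against 2 can give is 0.333, so no difference here could pass 0.05. Without control IP 1 the difference was −0.08 and without starved IP 1 it was −0.14. Without control IP 2 it was −1.66 and without starved IP 2 it was −1.60.

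Lengths of the proximal peak also differed within the groups. It measured 516 bp in control IP 1, 200 bp in control IP 2, 516 bp in starved IP 1 and 700 bp in starved IP 2. The 200 bp in control IP 2 is the shortest length any list held, shared by 4.64% of its peaks. All 4 peaks shared 193 bp. This common stretch held no GGAC, and the nearest match, GGACT at 366 nt, lay 17 nt before its start at 383 nt. The whole region held 3 GGAC matches, equal to the median of regions of like length.

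The distal Arrdc4 peak was the strongest peak of the members in 3 libraries. Its fold enrichment was 101.07 in control IP 1, 188.38 in control IP 2, 104.55 in starved IP 1 and 13.79 in starved IP 2. In 3 libraries this was at the 95.3 percentile of the list or higher, and in starved IP 2 at the 47.8 percentile. The score was 3100, where it is capped for most of the strongest peaks, in those 3 libraries and 734.02 in starved IP 2. The deposited values of the groups overlapped, because 104.55 in starved IP 1 lay just above 101.07 in control IP 1. As multiples of the list median they did not overlap, at 8.28 and 15.4 for control and 7.17 and 0.939 for starved IP.

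The mean log2 fold enrichment of the distal region was 7.11 ± 0.64 (SD, n = 2) in control and 5.25 ± 2.07 (SD, n = 2) in starved libraries. The difference was −1.86 (two-sided exact permutation test, p = 0.667, Benjamini-Hochberg adjusted 0.667 over the same 2 regions). Since 0.333 is the smallest p possible, the test could not tell any difference from the spread between replicates. The difference rested on starved IP 2: without that library it was −0.40, and without starved IP 1 it was −3.32. Without control IP 1 it was −2.31 and without control IP 2 it was −1.41. The starved IP 2 peak was also wider, at 643 bp against 357 to 377 bp in the other libraries, and reached from 1492 to 2134 nt. The other 3 peaks began between 1773 and 1781 nt and ended between 2134 and 2157 nt.

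All 4 distal peaks shared 354 bp at chr7:68737343-68737696. The only GGAC match of the region, at 1896 nt, lay within that stretch. The median of like regions was 3 matches, and 93.3% held at least 1. The centres of the distal peaks were 513, 526, 528 and 669 nt from the annotated end of the transcript in control IP 1, control IP 2, starved IP 1 and starved IP 2.

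The 2 Arrdc4 regions did not keep a fixed relation. The distal fold enrichment was 1.99 times the proximal one in control IP 1, 11.2 times in control IP 2, 10.8 times in starved IP 1 and 0.519 times in starved IP 2. Thus control IP 2 and starved IP 1 resembled each other more than either resembled its own replicate. The log2 ratio was 2.24 ± 1.76 (SD, n = 2) in control and 1.24 ± 3.10 (SD, n = 2) in starved libraries, with a difference of −0.99 (two-sided exact permutation test, p = 0.667).

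The middle region was called in starved IP 1 only, at chr7:68738000-68738199, from 1278 to 1477 nt after the stop codon. It was 200 bp long, with a fold enrichment of 3.48 at the 2.91 percentile of that list and a false discovery rate of 27.57%. It lay 14 nt from the distal region, of which the nearest part was covered in starved IP 2 only. It held 2 GGAC matches, where the median of like regions was 1.

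**Figure D2:**
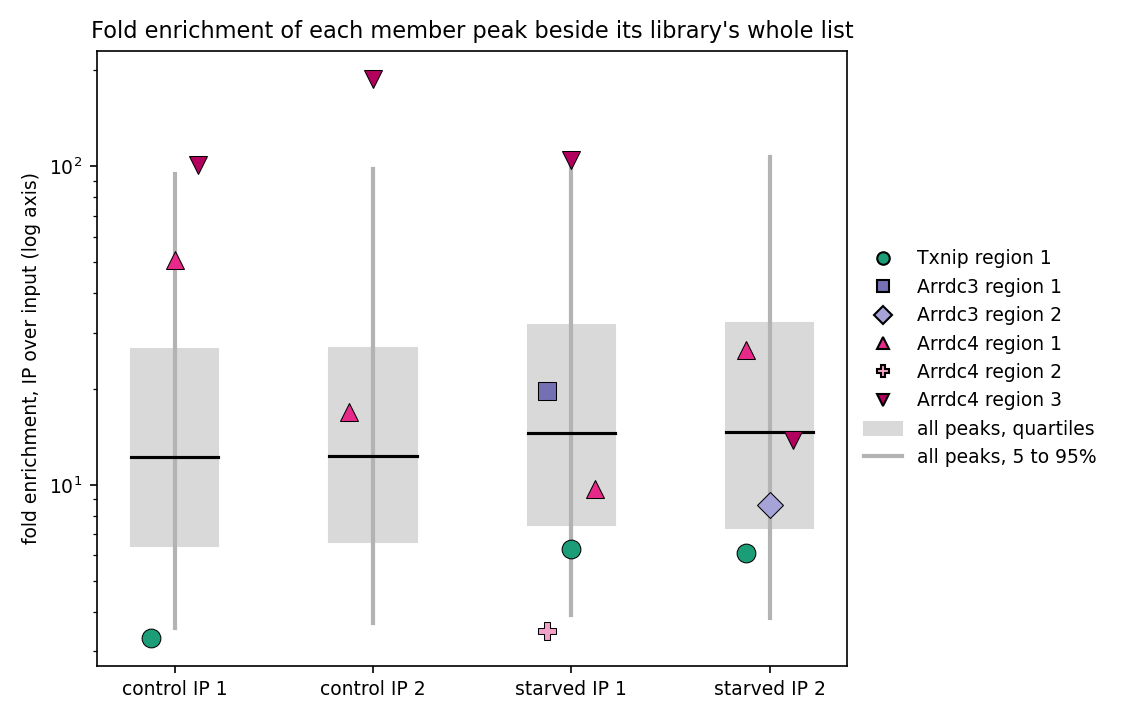
Fold enrichment (IP over input, log axis) of every member peak in each of the 4 IP libraries, beside the whole list of that library: the black line is the median, the box the quartiles and the thin line the 5 to 95% range. Txnip peaks (circles) sat below the lower quartile in all 3 libraries that had one, and the distal Arrdc4 peak (region 3) was at 13.79 in starved IP 2 and between 101.07 and 188.38 elsewhere.

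By deposited fold enrichment, 0 of the 2 Arrdc4 regions called in all libraries had both starved values on one side of both control values. Divided by the library medians, a step not applied to the shares that follow, the starved pair of the distal region lay below its control pair. Over all genes 2257 merged regions were called in every library, and the starved pair was above the control pair in 22.9% of them and below it in 18.0%. The median log2 difference of those regions was 0.10, with 5 to 95% between −1.59 and 1.76. The proximal Arrdc4 region was at the 17.3 percentile and the distal region at the 3.06 percentile of these differences. The gap between replicates differed between the 2 regions and groups. The absolute log2 gap between the starved libraries was 2.92 in the distal region, at the 96.5 percentile of all such gaps, whose median was 0.844. In the control libraries it was 0.898, at the 60.1 percentile. For the proximal region the gap was 1.59 between control and 1.46 between starved libraries, at the 83.2 and 73.0 percentiles.

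**Figure D3:**
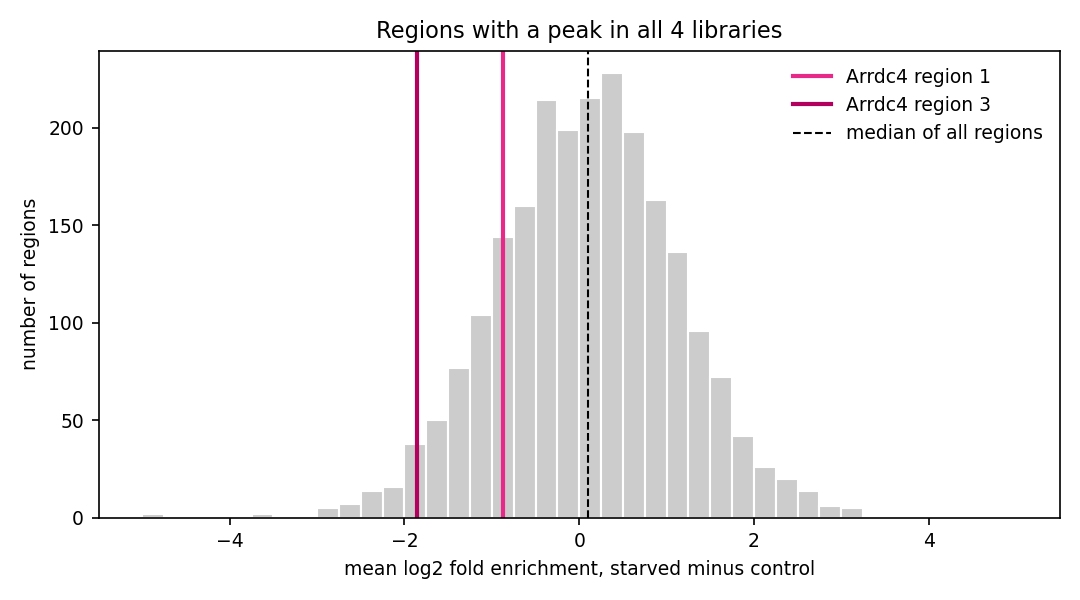
Histogram of the difference in mean log2 fold enrichment, starved minus control, over the 2257 merged regions with a peak in all 4 libraries, with lines at the proximal (region 1, −0.87) and distal (region 3, −1.86) Arrdc4 regions and a dashed line at the median of 0.10. Both Arrdc4 values lie left of the median, and each rests on 2 libraries a group whose deposited values overlap.

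Taking 1 value per gene, the strongest Arrdc4 peak had a fold enrichment of 101.07, 188.38, 104.55 and 26.55, which in starved IP 2 was the proximal peak. These values were at the 90.5, 96.3, 91.8 and 54.4 percentiles of the 2856 genes with peaks in all libraries. The mean log2 value was 7.11 ± 0.64 (SD, n = 2) in control and 5.72 ± 1.40 (SD, n = 2) in starved libraries. The difference was −1.39 (two-sided exact permutation test, p = 0.667), and −0.40 without starved IP 2. Genes with the most similar pattern over the 4 libraries, by Euclidean distance of log2 values, were Alms1 (0.817), Hip1 (0.846) and Zfp608 (0.921). Alms1 had 65.04, 232.66, 84.21 and 22.01, with the same order of control IP 2 highest and starved IP 2 lowest.

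Arrdc1 and Arrdc2 had no peak in any library under any gene name that overlapped their exons. Arrdc1 lies at chr2:24925352-24935252 and Arrdc2 at chr8:70835129-70839720, both on the minus strand. Their transcripts are not without the motif. GGAC occurred 8 times in Arrdc1, 2 of them in the 3′ UTR, and 13 times in Arrdc2, 6 of them in the 3′ UTR. Arrdc4, with 9 peaks, had 12 matches, 8 of them in the 3′ UTR, of which 6 lay in its peak regions. Txnip had 11 and Arrdc3 had 9. The number of matches in the transcript thus did not separate the genes with peaks from those without. Whether Arrdc1 and Arrdc2 were expressed in these cells was not tested, and no expression values were used here.

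Genes that act with alpha-arrestins were counted from lists chosen by function. Of 36 such genes, 26 had a peak in a library. Of those 26 genes, 8 had peaks in all 4, and 0 had a peak in both libraries of 1 group only. Over all 9778 genes with a peak, 29.2% had peaks in all 4 libraries, 3.19% in both starved only and 4.56% in both control only. Genes were counted whether or not their peaks lay at the same site. The share of all annotated genes that had a peak was not determined, so the counts of genes with a peak are description only. All 9 ligases of the NEDD4 family, the partners that PPxY motifs bind, had a peak in a library. Nedd4 alone of these had one in all libraries, where the fold enrichment of its strongest peak was 9.1 and 8.34 for control IP and 7.68 and 11.35 for starved IP. These peaks were not at 1 site. The strongest control ones were at chr9:72747126-72747877, the strongest starved ones at chr9:72719286-72719974 (starved IP 1) and chr9:72718221-72718582 (starved IP 2). The sites were not particular to a group. The first was also called in starved IP 2 (4.87), and the last also in control IP 2 (5.27) and starved IP 1 (4.31). No merged region of Nedd4 was called in all libraries. The adaptor Ndfip2, which also binds these ligases, had a peak in 2 libraries, and Ndfip1 in none.

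Mlxip, the gene of the MondoA factor that drives Txnip and Arrdc4, had peaks in all libraries, at 110.99 and 67.86 for control IP and 46.46 and 91.65 for starved IP, while Mlx and Mlxipl had none. Of 5 thioredoxin system genes, 3 had a peak. Txnrd1, a thioredoxin reductase, had 18.01 and 11.58 for control IP and 22.06 and 6.07 for starved IP, and Txn1, the thioredoxin that Txnip binds, had none. Slc2a1, the glucose transporter GLUT1 that Txnip brings into the cell, had 45.04 and 36.22 against 19.7 and 36.89. In each of these genes the groups overlapped. Of the 8 reported cargo and partner genes, 6 had a peak and 3 (Slc2a1, Egfr and Slc11a2) had one in all libraries. Only Slc2a1 of these 3 had a single merged region called in every library, and the peaks of Egfr and Slc11a2 were spread over different sites.

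The 26 genes had 61 merged regions, of which 6 had a peak in all 4 libraries. By the patterns used above, 2 of the 61 regions had a peak in both starved libraries only and 0 in both control libraries only, beside 3.2% and 4.15% of all merged regions. Of the 6 regions called in all libraries, 2 had both starved values higher and 1 had both lower, beside 22.9% and 18.0% over all genes. No test was made on these counts, and the 5 regions are given as values only. Hk2, the gene of hexokinase 2, which phosphorylates glucose, held 3 of these 5 regions. Its region at chr6:82738320-82738520 in the coding sequence was called at 60.81 and 21.98 in starved IP 1 and starved IP 2, without a control peak. Its region at chr6:82726970-82727454 in the stop codon window had 5.65 and 2.94 against 7.77 and 48.44, control before starved, a log2 difference of 2.25. That at chr6:82725025-82726797 in the 3′ UTR had 10.06 and 9.89 against 22.12 and 26.61, a difference of 1.28. In both, the lowest starved value was above the highest control value. Outside these patterns, Hk2 had a region at chr6:82736530-82736834 in the coding sequence with 6.17 in control IP 2 and 53.7 in starved IP 2. It also had 6.29 in starved IP 1 only, at chr6:82773918-82774223.

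The other pair of regions with these patterns were in a ligase and a kinase. Smurf1, a NEDD4-family ligase, had a region at chr5:144877505-144878647 in the 3′ UTR with 3.87 and 4.16 in the starved libraries only. The 3.87 in starved IP 1 was below the 5% point of that list, 3.91, and the 4.16 in starved IP 2 above its own, 3.81. Smurf1 also had 8.25 in control IP 2 only at chr5:144876495-144877309 in the 3′ UTR. At chr5:144896490-144896689 in the coding sequence it had 57.5 in starved IP 2 only. Prkaa1 encodes a catalytic subunit of AMP-activated protein kinase. Its region at chr15:5178688-5179263 in the stop codon window had 73.01 and 69.77 for control IP and 51.29 and 45.25 for starved IP, a log2 difference of −0.57. The other regions of Prkaa1 were outside these patterns, each called in 1 or 2 libraries. By deposited fold enrichment, neither Txnip nor an Arrdc gene had a region in both libraries of 1 group only or with groups that did not overlap.

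**Figure D4:**
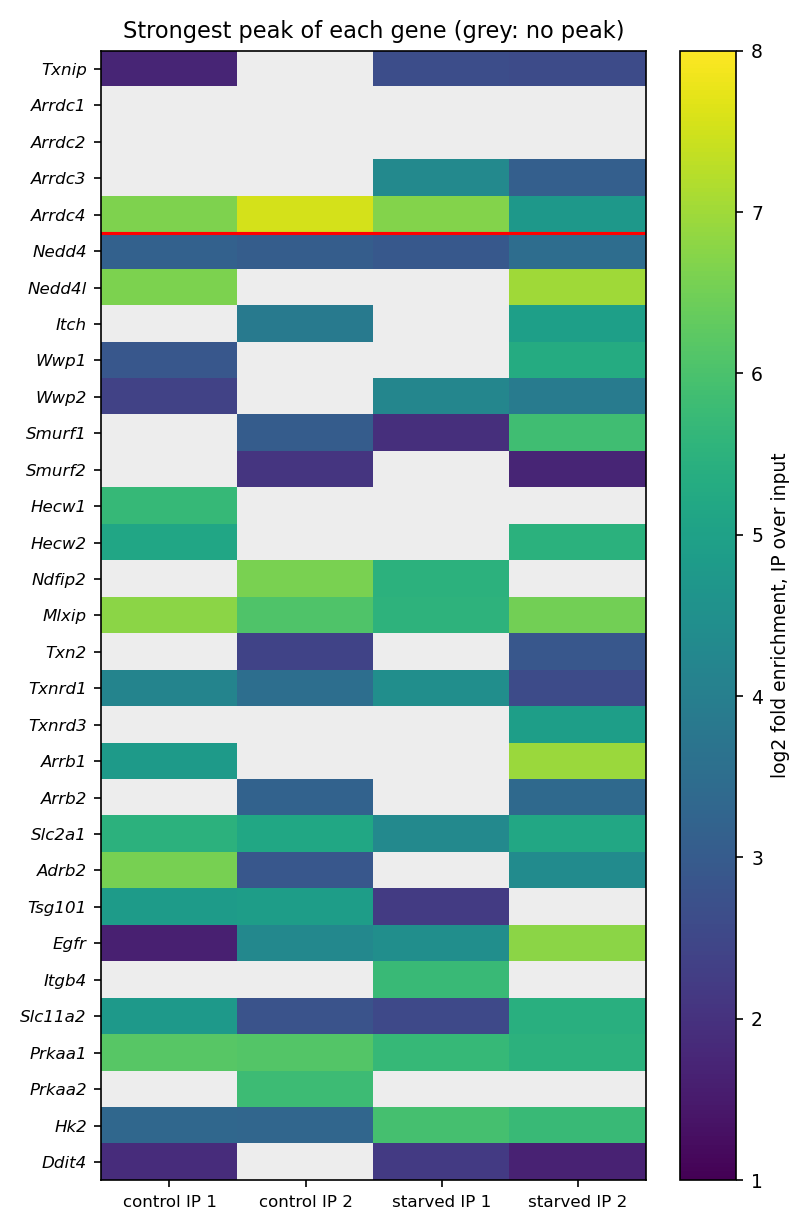
Log2 fold enrichment of the strongest peak of each gene in each IP library, for the 5 members (above the red line) and the 26 genes of the related lists with a peak; pale grey is no peak. Arrdc4 was the only member filled in all 4 columns, Arrdc1 and Arrdc2 were empty throughout, and Txnip was near the low end of the colour scale.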

How the data were processed

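MeRIP-seq peak lists of the 4 IP libraries were used, grouped by the titles of the samples. Per the study's methods and the submitters' processing notes, the authors trimmed reads, aligned them to mm10 with HISAT2 2.0.4, called peaks in each IP library with MACS2 against its input, and then retained those on exons of mRNAs. Since the lists carry the column headings of an older MACS release, the version of the caller is uncertain. The deposited fold enrichment is the ratio of the IP signal of a peak to its local input signal, by the authors' caller. The deposited score is minus 10 times log10 of the peak's p-value, and most of the strongest peaks stop at 3100. The authors' false discovery rate is a percent, of at least 5.56 in these lists. A deposited table of the authors' own comparison (fold changes, p-values, false discovery rates and directions) was not used. 0 columns of per-sample values were unmapped. The files give no reads, so the depth per library and the precision of a single peak are unknown, and deeper libraries yield more peaks at the same enrichment.

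Peak starts were raised by 1 to count from 1. Peaks that overlapped by 1 bp or more were merged over the libraries. Positions and motifs came from the longest coding transcript of GENCODE M21 on GRCm38, with peaks placed by their centre and a window of 100 nt on either side of the stop codon. From 9.47% to 10.3% of the peaks of a list could not be placed. GGAC and GGACT, which is a subset of GGAC, were searched on the transcribed strand only. Regions of like length had 80% to 125% of the spliced length. The library was the replicate. The study treats replicates as biological, but nothing shows how far they were separate cultures, so p-values measure only the spread between these libraries. Log2 values were tested by exact permutation of the libraries between groups (two-sided, 3 arrangements), and counts of members had no test. Analyses used Python 3.11.15, numpy 2.4.6, pandas 2.3.3 and matplotlib 3.10.9. Merging, patterns, tests and positions were tested on simulated data (5000 regions), and 9 of 9 quantities were recovered.

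The members, the lists of related genes and the marker genes were chosen with earlier results of these data known. Named were all 5 members with every peak, the related genes whose region had a peak in both libraries of 1 group only or values that did not overlap between groups, and the 3 genes nearest to Arrdc4. Nedd4, Ndfip1, Ndfip2, the Mlx genes, Txn1, Txnrd1 and Slc2a1 were named in addition, after their values were seen. Alternatives were stricter peak filters, lists of equal number, exon overlap, a stricter overlap, another centring or averaging, a replicate block and each library left out.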

Additional observations from a re-analysis of the deposited data

How the results depend on the processing

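The difference in member peaks per library (2.0) was 0.5 with a false discovery rate under 20%, 1.5 to 2.5 without each library in turn, and 2.0 to 2.5 otherwise. Member regions with a peak in both starved libraries only (0) came to 1 with a score of at least 100, with at least 4-fold enrichment and with lists of equal number, Txnip each time, and to 0 to 2 without each library in turn. Member genes of that kind (1, Arrdc3) came to 2 under the same 3 filters, to 0 with a false discovery rate under 20%, and to 1 to 2 without each library. With a library left out, 1 library stood for its group, so these patterns were then judged by a looser criterion. The 2 regions found without starved IP 2 were called in starved IP 1 only. The reverse pattern by region stayed at 0 in all 11 alternatives. The Arrdc4 differences kept a negative sign in every alternative. Left-out libraries gave −1.66 to −0.08 in the proximal region, −3.32 to −0.40 in the distal region and −2.38 to −0.40 for the strongest peak. Over all exact tests p ranged from 0.333 to 1.0. After the library medians were taken off the differences were −1.13, −2.12 and −1.65. The groups then no longer overlapped for the distal region and the strongest peak (two-sided exact permutation test, p = 0.333, the smallest possible). The Txnip value (0.90) was 0.64 after that step, and had no control peak left under the filters above or without control IP 1.

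With the replicate number as a replicate block the values were the same (−0.87, −1.86 and −1.39, and 2.0 peaks), with an exact sign-flip p = 1.0, where 0.5 is the smallest possible. Same-numbered libraries did not deviate together (r = −0.0173 over 2257 regions, which are not independent), so the numbers were not taken as pairs. Merging across gaps of up to 50 bp, chosen after seeing the data, left the 4 results it was run on at the same values, but joined the middle and distal Arrdc4 regions, so that member regions numbered 5, with 2 in 1 library only, in place of 6 and 3. The number of libraries, and a depth that is unknown, limit what these lists can show.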
